A study of Homo sapiens with 2 samples.

Results

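The open regions of the 11q13 segment around CCND1 were taken as every ATAC-seq peak whose midpoint lay on chromosome 11 between 67 and 72 Mb of the human genome build hg38. Replicate 1 held 1581 such peaks of 245736 in all, or 0.643%, and replicate 2 held 1567 of 259745, or 0.603%. Peaks were assigned by position and not by their values, though the segment itself was chosen with earlier results of these data known. The cells were CAMA-1, an established luminal breast adenocarcinoma line that is positive for the estrogen receptor. The paper describes its CAMA-1 model as a long-term passage, grown in Dulbecco's medium with fetal bovine serum, and names no treatment of the cells used for ATAC-seq. In ATAC-seq the Tn5 transposase cuts and tags DNA that is not packed against nucleosomes, so that stacked reads mark open chromatin. Libraries came from 2 biological replicates of 50000 cells each, which form a single condition, so values are given for each replicate and no test between groups was possible. CAMA-1 is 1 line, and the spread between these replicates does not cover differences between breast tumors.

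Chromosome band 11q13 carries CCND1, which encodes cyclin D1. Cyclin D1 binds the kinases CDK4 and CDK6, which phosphorylate the retinoblastoma protein and let a cell pass from G1 into S phase. Its neighbors include the growth factor genes FGF19, FGF4 and FGF3, the chloride channel gene ANO1, the death receptor adaptor gene FADD and the cortactin gene CTTN, and this stretch is gained as a block in a share of luminal breast tumors. Copy number was not analysed here. More copies of a stretch and more open chromatin per copy both add stacked reads, and they cannot be told apart from the peak lists.

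The height of a peak is the number of reads that the peak caller stacked at its highest base, recovered from the deposited fold enrichment. That enrichment was computed against the same background everywhere, 3.35 stacked reads for replicate 1 and 3.52 for the other. Over the whole lists, the lowest height was 11 and the median 35.0, and the highest was 1744 and 1759. A peak within 1 kb of a transcription start site (TSS) of a protein-coding gene was called a TSS peak, and a peak more than 3 kb from every annotated TSS was called distal. In the segment, replicate 1 had 243 TSS peaks, 992 distal peaks and 346 between these classes, and replicate 2 had 243, 982 and 342. The labelled cell type was checked against marker genes. All 9 luminal epithelial markers had a TSS peak in both replicates, beside 79.3% of all protein-coding genes, with heights from 135 at ESR1 to 982 at ELF3 in replicate 1 and from 146 to 1046 at the same genes in replicate 2. All 3 basal markers (heights 22 to 123 and 28 to 114) and all 3 fibroblast markers (75 to 318 and 85 to 303) also had one, so the presence of a peak did not set the luminal markers apart.

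The sequences below are those on which the results turn. The first set are 300-base promoter windows from RefSeq (GRCh38.p14), written 5′ to 3′ on the strand of the gene. CPT1A, KDM2A and CDK2AP2 were among the tallest TSS peaks, and LTO1 is the neighbor of CCND1. GSTP1 and ANO1 had no peak over the window shown, and MRGPRD, a receptor gene of sensory neurons, had a low one. The ANO1 window is at the first annotated start of the gene and not at its canonical one. Capitals mark the letters of 6 promoter motifs on either strand, namely the GC box (GGGCGG), the CCAAT box (CCAAT), the ETS motif (CCGGAAG), the cAMP response element (TGACGTCA), the E-box (CACGTG) and the TATA box (TATAAA). Matches of the GC box, the CCAAT box and the ETS motif can overlap or adjoin, and then appear as 1 run of capitals. The last run in the LTO1 window holds 2 ETS matches.
CPT1A promoter, chr11:68844228-68844527, reverse strand: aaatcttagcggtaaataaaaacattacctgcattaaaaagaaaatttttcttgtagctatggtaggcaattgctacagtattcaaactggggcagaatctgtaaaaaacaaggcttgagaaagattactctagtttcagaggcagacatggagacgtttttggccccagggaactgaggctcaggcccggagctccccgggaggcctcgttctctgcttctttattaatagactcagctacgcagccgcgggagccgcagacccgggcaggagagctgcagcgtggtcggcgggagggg
KDM2A promoter, chr11:67239764-67240063, forward strand: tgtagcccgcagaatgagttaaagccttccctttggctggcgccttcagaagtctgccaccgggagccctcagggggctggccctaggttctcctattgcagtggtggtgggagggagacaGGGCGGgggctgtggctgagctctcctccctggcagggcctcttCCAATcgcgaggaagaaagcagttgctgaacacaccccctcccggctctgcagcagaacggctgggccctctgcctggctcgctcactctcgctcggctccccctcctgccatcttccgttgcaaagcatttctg
CDK2AP2 promoter, chr11:67508113-67508412, reverse strand: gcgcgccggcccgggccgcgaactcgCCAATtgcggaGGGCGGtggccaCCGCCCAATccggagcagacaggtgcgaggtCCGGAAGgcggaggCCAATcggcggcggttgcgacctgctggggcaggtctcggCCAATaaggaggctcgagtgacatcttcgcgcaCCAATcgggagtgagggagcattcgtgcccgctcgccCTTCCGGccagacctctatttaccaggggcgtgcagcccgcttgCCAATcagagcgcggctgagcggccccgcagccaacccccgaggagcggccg
LTO1 promoter, chr11:69675304-69675603, reverse strand: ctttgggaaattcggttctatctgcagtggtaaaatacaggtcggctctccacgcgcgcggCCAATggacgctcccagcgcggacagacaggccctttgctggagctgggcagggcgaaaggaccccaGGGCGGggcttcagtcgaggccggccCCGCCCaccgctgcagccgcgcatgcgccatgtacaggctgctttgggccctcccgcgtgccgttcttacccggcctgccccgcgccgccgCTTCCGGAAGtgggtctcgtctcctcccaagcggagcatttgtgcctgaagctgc
GSTP1 promoter, chr11:67583562-67583861, forward strand: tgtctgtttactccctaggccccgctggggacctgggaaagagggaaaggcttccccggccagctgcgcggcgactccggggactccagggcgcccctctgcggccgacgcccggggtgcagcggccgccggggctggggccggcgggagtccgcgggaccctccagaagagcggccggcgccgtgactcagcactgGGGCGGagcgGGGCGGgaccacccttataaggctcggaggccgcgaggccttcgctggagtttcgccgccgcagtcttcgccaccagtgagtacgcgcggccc
ANO1 promoter, chr11:69985657-69985956, forward strand: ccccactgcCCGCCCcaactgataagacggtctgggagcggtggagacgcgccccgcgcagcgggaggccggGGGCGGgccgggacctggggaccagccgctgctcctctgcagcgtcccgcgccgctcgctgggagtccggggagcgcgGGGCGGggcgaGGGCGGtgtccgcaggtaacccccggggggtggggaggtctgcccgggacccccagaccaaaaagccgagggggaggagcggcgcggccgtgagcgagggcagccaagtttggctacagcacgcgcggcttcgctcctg
MRGPRD promoter, chr11:68980937-68981236, reverse strand: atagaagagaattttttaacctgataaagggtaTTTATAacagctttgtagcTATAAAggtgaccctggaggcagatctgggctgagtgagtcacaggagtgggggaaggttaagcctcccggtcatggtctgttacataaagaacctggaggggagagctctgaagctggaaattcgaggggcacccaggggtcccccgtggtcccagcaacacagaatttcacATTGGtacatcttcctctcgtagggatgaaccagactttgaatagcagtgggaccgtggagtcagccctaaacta

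The second set are 300-base windows of hg38 at the middle of 3 of the tallest distal regions, since the lists give no summits. Capitals mark the letters of 6 motifs on either strand, of which the AP-1 motif (TGANTCA) had a match in these windows. The others searched were the motif of the GATA factors (AGATAA), the AP-2 motif (GCCNNNGGC), the FOX motif (TGTTTAC), the CTCF core (CCANNAGNNGGC) and the estrogen response element (GGTCANNNTGACC). Overlapping matches were each counted.
TPCN2 intron region, chr11:69123223-69123522, forward strand: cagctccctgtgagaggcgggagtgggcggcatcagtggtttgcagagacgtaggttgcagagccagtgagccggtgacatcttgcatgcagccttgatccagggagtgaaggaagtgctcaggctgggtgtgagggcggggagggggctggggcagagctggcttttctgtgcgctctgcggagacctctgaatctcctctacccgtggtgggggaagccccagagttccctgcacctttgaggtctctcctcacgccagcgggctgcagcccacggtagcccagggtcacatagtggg
Region between MYEOV and CCND1, chr11:69513999-69514298, forward strand: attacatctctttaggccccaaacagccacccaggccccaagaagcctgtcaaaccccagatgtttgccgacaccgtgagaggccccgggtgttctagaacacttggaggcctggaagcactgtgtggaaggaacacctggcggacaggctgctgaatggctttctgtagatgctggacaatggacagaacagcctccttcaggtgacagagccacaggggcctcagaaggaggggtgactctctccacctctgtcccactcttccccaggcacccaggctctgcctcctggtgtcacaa
Region between FADD and PPFIA1, chr11:70233624-70233923, forward strand: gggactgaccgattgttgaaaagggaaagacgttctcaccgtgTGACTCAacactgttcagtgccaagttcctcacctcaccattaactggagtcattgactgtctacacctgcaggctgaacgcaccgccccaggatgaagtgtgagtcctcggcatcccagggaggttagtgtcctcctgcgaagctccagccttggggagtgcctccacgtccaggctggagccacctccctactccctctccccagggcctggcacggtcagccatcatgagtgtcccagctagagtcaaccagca

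The segment held more peaks than most of 11q, and they were unevenly spread. From 67 Mb on, the 10 consecutive 500 kb bins held 178, 125, 216, 170, 304, 249, 199, 43, 60 and 37 peaks in replicate 1. In replicate 2 they held 177, 121, 212, 182, 279, 237, 206, 50, 66 and 37. The first 7 bins were dense in both replicates and the last 3 were not. The mean was 158 and 157 peaks per bin, against 35.9 and 37.2 over the 152 full bins of the rest of 11q (54 Mb to the end of the chromosome), a ratio of 4.31 ± 0.140 (SD, n = 2). The rest of 11q was itself uneven, with medians of 22 and 23.5 peaks per bin and 10 bins of 100 or more peaks in each replicate. The segment had 7 of its 10 bins at that level. The bin from 69 to 69.5 Mb, which holds TPCN2 and MYEOV, ranked first among 163 bins of 11q in both replicates. Among all bins of the genome with a peak it ranked 1 of 5703 in replicate 1 and 2 of 5711 in replicate 2.

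**Figure D1:**
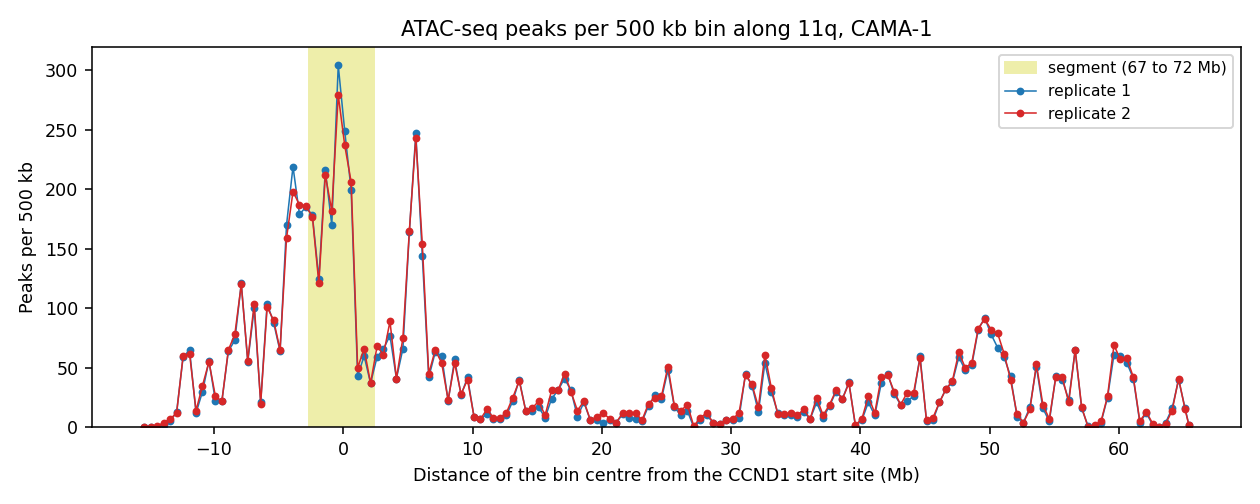
ATAC-seq peaks per 500 kb bin (vertical axis) against the distance of the bin centre from the CCND1 start site in Mb (horizontal axis) along 11q, with 1 line per replicate and the segment shaded. The densest bin, of 304 and 279 peaks, lies just before CCND1, and the last 3 bins of the segment hold 37 to 66 peaks.

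The high density did not begin at 67 Mb. The 4 bins from 65 to 67 Mb already held 170, 219, 179 and 185 peaks in replicate 1 and 159, 198, 187 and 186 in replicate 2. Beyond the segment, a second dense stretch followed from 74.5 to 76 Mb, with up to 247 and 243 peaks in a bin. The lower edge of the segment was thus a border of the rule and not of the data, while a fall in density lay inside the segment.

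That fall lay between CTTN, which encodes an actin-binding protein, and the 3′ end of SHANK2, which encodes a scaffold protein of synapses. In 20 kb bins, 13 peaks in replicate 1 and 14 in replicate 2 lay from 70.42 to 70.44 Mb, over the end of CTTN, and 11 and 8 lay in the next bin. From 70.46 Mb on, no 20 kb bin up to 70.56 Mb held more than 3 peaks in replicate 1 or 4 in replicate 2. The bins before were uneven too, and the bin from 70.36 to 70.38 Mb held only 2 and 4 peaks. In the 960 kb before 70.46 Mb there were 46.0 and 45.4 peaks per 100 kb, with 26.3% and 25.6% of the bases under a peak. In the 960 kb after it, most of it within SHANK2, there were 10.0 and 11.6 peaks per 100 kb, with 3.62% and 4.14% of the bases under a peak. Peaks of height 200 or more numbered 43 and 46 before the step and 1 and 3 after it. The median height had the opposite order, at 25 and 27.0 before the step and 39.0 and 33.0 after it.

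Gene number and base composition moved with density along 11q, and their part in it was not tested. The segment held 72 protein-coding genes, a mean of 7.20 per bin against 5.24 in the rest, and a mean GC content of 49.8% against 41.4%. Peaks per gene were 22 and 21.8 in the segment and 6.85 and 7.11 in the rest. Against the 54 bins of the rest of 11q that held at least as many genes as the median bin of the segment, the ratio of densities was 2.5. Across the 152 bins of the rest, the count of peaks had a Spearman correlation of 0.631 and 0.638 with the count of genes and of 0.758 and 0.749 with GC content. Across the 10 bins of the segment these were 0.0122 and −0.0366 for genes and 0.539 and 0.467 for GC, over neighboring bins of the same 2 libraries. The bin of 69 to 69.5 Mb held 5 genes, whereas the bin of 71.5 to 72 Mb held 11 genes and the fewest peaks.

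Median heights were lower in the segment than in the rest of 11q, and the tallest peaks were higher. TSS peaks had a median of 41.0 and 39.0 in the segment and of 64.0 and 67 in the rest, a ratio of 0.611 ± 0.0414 (SD, n = 2). Distal peaks had a median of 26.0 and 26.5 in the segment and of 33.0 and 33.0 in the rest, a ratio of 0.795 ± 0.0107. As deposited fold enrichments, the medians were 9.66 and 8.85 against 15 and 15 for TSS peaks, and 6.21 and 6.08 against 7.82 and 7.52 for distal peaks. At the 90th percentile the order was turned, with heights of 440.4 and 449 against 306 and 319 for TSS peaks and of 152 and 150.0 against 127 and 131 for distal peaks. The ratio at this percentile was 1.42 ± 0.0224 for TSS peaks and 1.17 ± 0.0361 for distal peaks, and at the 99th percentile it was 1.18 ± 0.0439 and 1.65 ± 0.0323. The ratio of means was also above 1, at 1.10 for TSS peaks and 1.12 for distal peaks, so the direction of a height comparison depended on which peaks entered it.

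**Figure D2:**
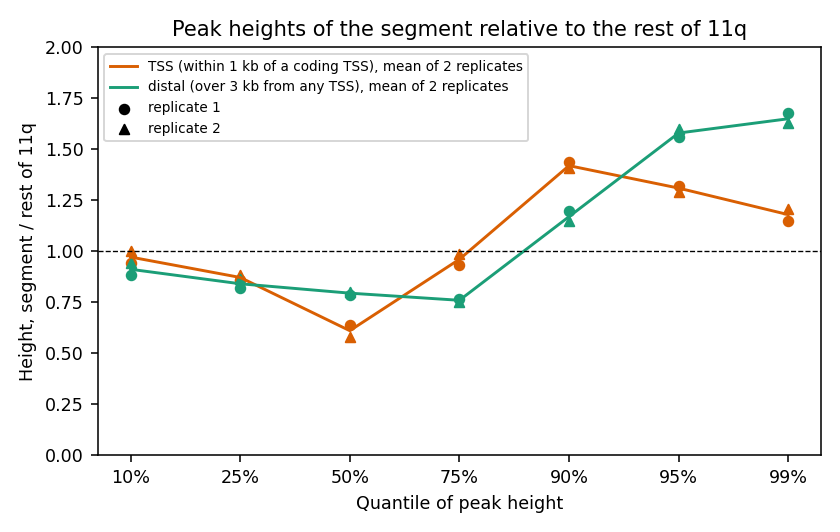
Ratio of peak heights, segment to rest of 11q (vertical axis), at 7 quantiles of height (horizontal axis), for TSS and distal peaks, with circles for replicate 1, triangles for replicate 2 and lines for their mean. Both lines lie below 1 up to the 75th percentile and above 1 from the 90th on.

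Low peaks accounted for a larger share of the segment. Peaks under a height of 20 were 28.0% and 25.4% of the segment and 17.5% and 17.1% of the rest. Peaks of height 200 or more were 10.5% and 11.5% of the segment against 8.47% and 8.77%. Counted per 500 kb, these tall peaks numbered 16.6 and 18 in the segment and 3.04 and 3.26 in the rest. When only the tallest TSS peak of each gene was taken, the median over genes with a peak was 284 and 299 in the segment and 176 and 185 in the rest, a ratio of 1.62 in both replicates. The 10 tallest distal peaks of each bin had a median of 287 and 296 in the segment and of 66.0 and 71 in the rest. Both measures take a fixed number of peaks from larger sets in the segment, which by itself raises the tallest. In replicate 1, the segment's 10 bins held 992 distal peaks, against 3007 over the 152 full bins of the rest. TSS peaks numbered 243 for 72 genes in the segment and 1229 for 796 genes in the rest. How much of either difference this gave was not tested. TSS peaks were 1.58 and 1.47 times as tall as distal peaks by the median in the segment, against 1.94 and 2.03 times in the rest.

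**Figure D3:**
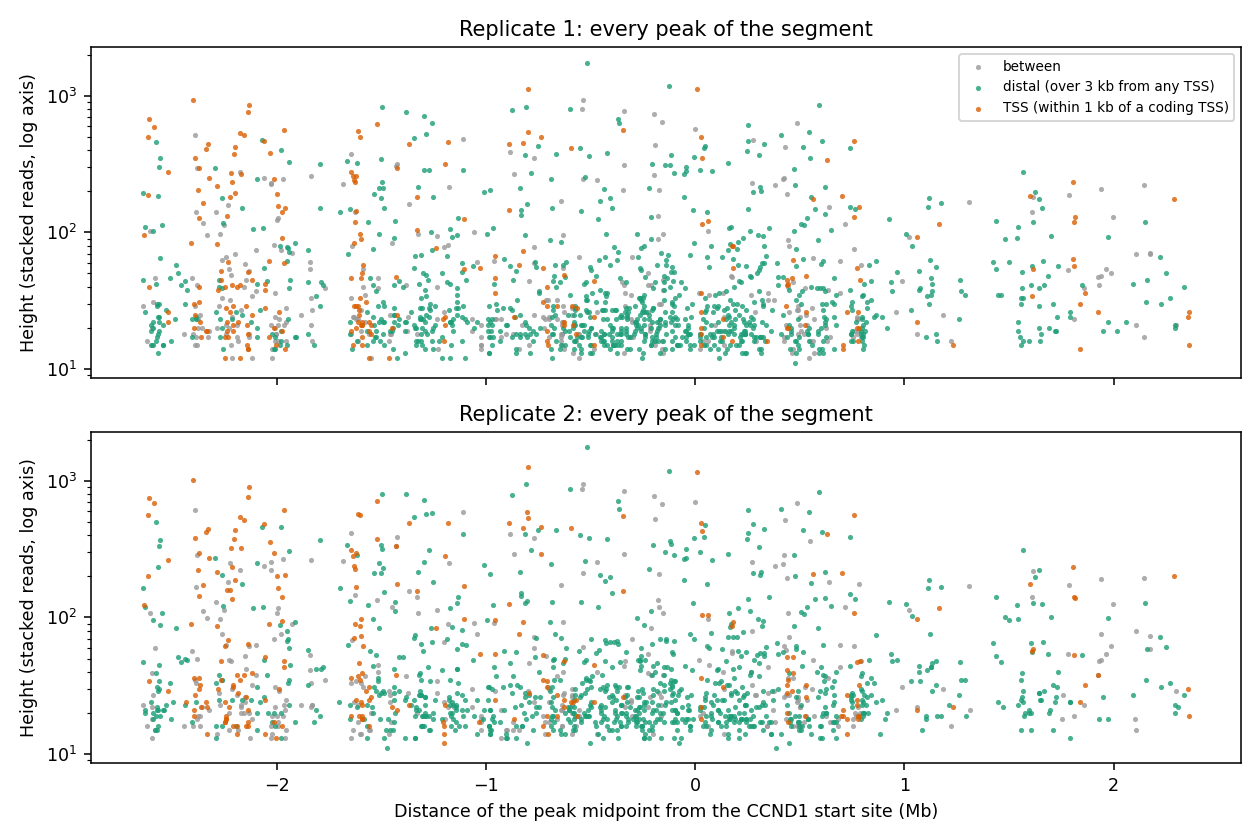
Height of every peak of the segment in stacked reads (vertical log axis) against the distance of its midpoint from the CCND1 start site in Mb (horizontal axis), with replicate 1 above and replicate 2 below, colored by class. Low distal peaks fill the stretch before and after CCND1 up to the step near SHANK2, beyond which no peak is taller than 277 in replicate 1 or 311 in replicate 2.

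The dense and the sparse stretch were also compared. From 67 to 70.5 Mb, distal peaks had a median of 24 and 26.0 and a 99th percentile of 675 and 714. From 70.5 to 72 Mb, the median was 38.0 and 32.0 and the 99th percentile 204 and 220.1. Against the flanks of the same length on either side (62 to 67 and 72 to 77 Mb), which hold the dense bins named above, the ratio of median heights was 0.736 ± 0.0737 (SD, n = 2) for TSS peaks and 0.913 ± 0.00107 for distal peaks.

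The replicates gave much the same regions at the tall end and differed among the low peaks. In replicate 1, 85.3% of the segment's peaks were overlapped by a peak of replicate 2, against 90.2% of all peaks of the genome. In replicate 2 the share was 86.5%, against 84.7%. Merged by overlap, the segment's peaks formed 1710 regions, of which 1265 had a peak in both replicates, 233 in replicate 1 alone and 212 in replicate 2 alone. No region of a single replicate exceeded a height of 39, and their median was 17.0. For the 283 shared regions with a mean height of 100 or more, the ratio of replicate 2 to replicate 1 had a median of 1.05, with 0.911 and 1.20 as its 10th and 90th percentiles. The shared regions comprised 209 TSS, 787 distal and 269 other regions.

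Among the 72 protein-coding genes, 65 had a TSS peak in both replicates, or 90.3% (95% Wilson interval 81.3 to 95.2%), beside 79.3% of the 20033 protein-coding genes of the genome and 70.6% of the 796 of the rest of 11q. The interval takes the genes as independent, while neighbors share peaks, so it does not judge the difference from the genome. With the peak within 100 bp of the TSS, the share was 81.9% in the segment and 73.2% over the genome. TSS peaks of height 500 or more stood at 15 genes in replicate 1 (20.8%) and 16 in replicate 2 (22.2%), beside 8.37% and 10.1% over the genome and 4.52% and 5.15% in the rest of 11q. Genes that share a peak were each counted. From 67 to 70.5 Mb, 57 of 58 genes had a TSS peak in both replicates. From 70.5 to 72 Mb, 8 of 14 had one, and none of those reached a height of 500. The 6 genes without a TSS peak all lay in the latter stretch. They were KRTAP5-7, KRTAP5-8, KRTAP5-9 and KRTAP5-11, which encode keratin-associated proteins of hair, and DEFB108B and DEFB131B, which encode defensins. Both are families of similar copies, where reads can align to several places, and whether this removed peaks was not tested. TBC1D10C had a peak of 22 in replicate 1 and none in replicate 2.

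**Figure D4:**
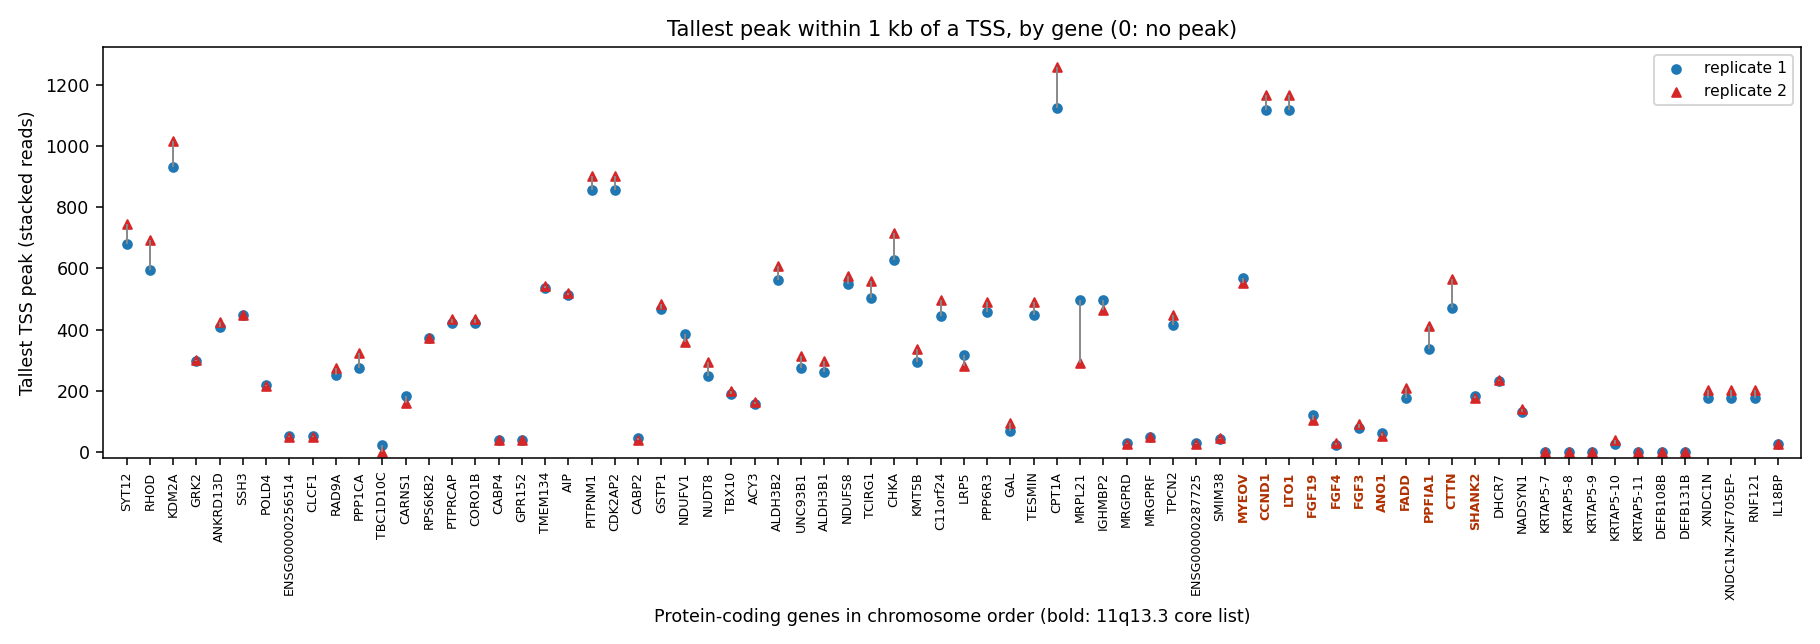
Height of the tallest TSS peak in stacked reads (vertical axis) for the 72 protein-coding genes of the segment in chromosome order (horizontal axis), with circles for replicate 1, triangles for replicate 2 and 0 where no peak was called. CPT1A, CCND1 and LTO1 stand highest at 1118 to 1259, and no gene after CTTN exceeds 236.

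All 11 listed core genes around CCND1 had a TSS peak in both replicates, beside 79.3% of all genes and 90.3% of the segment's. Their heights had a median of 184 and 209 and ranged from 23.0 to 1118 and from 31.0 to 1166. They differed widely, and the peak of CCND1 was the tallest. CCND1 (ENSG00000110092.4, chr11:69641156-69654474, forward strand) had a height of 1118 (exact Poisson 95% interval 1053 to 1186) in replicate 1 and 1166 (1100.0 to 1235) in replicate 2, with fold enrichments of 257 and 258. Its peak, chr11:69640075-69660566 and chr11:69640163-69660457 in the respective replicates, reached from before the start of the gene to beyond its 3′ end. At 20492 and 20295 bp it was the widest of the segment and ranked 6 and 4 by width in the genome. A separate peak of 571 and 704 lay upstream, 1404 bp from the CCND1 start site.

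The peak over CCND1 also lay within 1 kb of an annotated start of LTO1, which encodes a factor of iron-sulfur protein assembly and is read from the opposite strand toward CCND1. At the canonical LTO1 start, 69675353, a peak of its own had a height of 348 and 433. MYEOV, an open reading frame first found in myeloma, had 567 and 553 over its start. The fibroblast growth factor genes were low. FGF19 had 121 and 104, FGF3 had 80 and 93, and FGF4 had 23 and 31, so all 3 were below the median of the core. Only FGF19, and only in replicate 2, had a peak over its canonical start. The other peaks lay beside that start, apart from the 80 of FGF3, which stood near an inner start. Within 1 kb of the canonical FGF3 start, the tallest peak of replicate 1 had 79.

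Beyond the growth factor genes, the peaks of the core genes were of mixed height. ANO1, the calcium-activated chloride channel, had 63 and 51 at its tallest annotated start. At its canonical start, 70078317, a peak of 45 and 51 lay over the start. No peak lay over the window printed above, which is at the first annotated start, 69985907. FADD had 177 and 209. PPFIA1, which encodes a liprin that organizes cell adhesions, had 338 and 411, and CTTN had 469 and 564. SHANK2 had 184 and 175 at an inner start but 54 and 59 at its canonical one. Between the replicates, the core genes kept nearly the same order, with FGF4 lowest, ANO1 next to it and CCND1 and LTO1 at the top, while FADD and SHANK2, and MYEOV and CTTN, changed places.

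**Figure D5:**
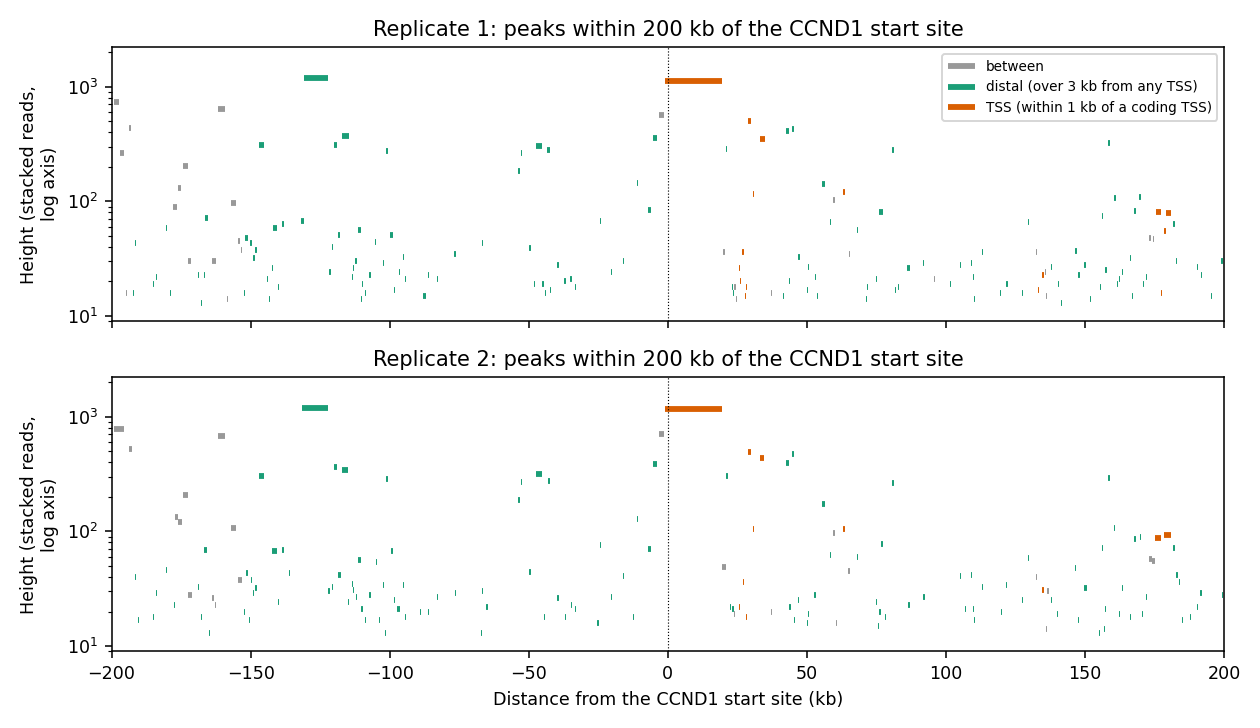
Peaks within 200 kb of the CCND1 start site, each drawn as a bar from its left to its right end (horizontal axis, kb from the start site) at its height in stacked reads (vertical log axis), with replicate 1 above and replicate 2 below, colored by class. The 20 kb peak over CCND1 and the broad distal region about 130 kb before it stand at the top in both replicates.

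Peaks were also frequent between the core genes. The 299 kb from the end of MYEOV to the start of CCND1 hold no other protein-coding gene, yet they held 170 and 160 peaks that covered 34.6% and 31.8% of the bases. Of these, 17 and 16 reached a height of 200 or more. The 166 kb from FGF3 to ANO1 held 91 and 86 peaks, with 9 and 10 of them at 200 or more. The 67 kb from FGF19 to FGF4 held 29 and 27 peaks, of which 1 in each replicate reached 200. By contrast, the part of SHANK2 beyond 70.5 Mb, 753 kb long, held 69 and 80 peaks, with 1 in each replicate at 200 or more.

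Outside the core, the tallest TSS region belonged to CPT1A (ENSG00000110090.13, chr11:68754620-68844410, reverse strand), which encodes the carnitine transferase that brings long-chain fatty acids into mitochondria. Its height was 1123 (1058 to 1191) in replicate 1 and 1259 (1190.4 to 1331) in replicate 2, which ranked 29 and 22 among all peaks of the genome. The peak was only 777 and 784 bp wide, against the 20 kb of CCND1 at a similar height. A further region within CPT1A, at 68838531 to 68842399, had 541 and 595. Only CPT1A and PITPNM1 had 2 regions each among the 10 tallest at TSSs. The window printed for CPT1A held none of the 6 promoter motifs and had a GC content of 50.0%.

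KDM2A, which encodes a histone H3 lysine 36 demethylase, followed with 932 and 1017. This peak stood at a downstream start, shown above, whose window held 1 GC box and 1 CCAAT box. At the first start of KDM2A the peak was lower, at 277 and 263. CDK2AP2, whose product binds the kinase CDK2, shared a peak of 856 and 902 with its neighbor PITPNM1, a lipid transfer protein gene, which had a region of its own at 766 and 765. The CDK2AP2 window held 6 CCAAT boxes, 2 GC boxes and 2 ETS motifs. Over all 35116 RefSeq promoter windows, 45.0% held a GC box, 34.6% a CCAAT box, 10.3% an ETS motif, 11.5% a TATA box, 7.26% an E-box and 1.85% a cAMP response element. Over the 83 windows of the segment these shares were 50.6%, 34.9%, 9.64%, 3.61%, 3.61% and 2.41%.

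The other TSS regions among the 10 tallest were at SYT12, a synaptotagmin gene (679 and 746), CHKA, the choline kinase of phosphatidylcholine synthesis (627 and 714), RHOD, a small GTPase gene (595 and 692), and ALDH3B2, an aldehyde dehydrogenase gene (562 and 608). All of the 10 were taller in replicate 2 apart from the region of PITPNM1 alone. Heights were not scaled for depth, and the paper lists more sequences for replicate 2 than for replicate 1. At MRPL21 and IGHMBP2, read from a common promoter, the replicates differed in how the peak was drawn. In replicate 1 a single peak of 497 covered the promoter and the start of IGHMBP2's body. In replicate 2 it was split into a peak of 291 over the first starts of both genes and one of 463 inside IGHMBP2, near inner starts of that gene.

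Genes in broad use had a higher median height than genes used in few tissues, and the ranges of the lists overlapped. All 21 broadly used genes of the segment had a TSS peak in both replicates, beside 90.3% of the segment's genes and 79.3% of all genes, with medians of 457 and 358 and ranges from 130.0 to 1123 and from 141 to 1259. By this measure, the tallest peak within 1 kb of any annotated start, the lowest was NADSYN1, of NAD synthesis, and the highest CPT1A. Of 12 genes used in few tissues, 7 had one, with medians of 27.5 and 32.5 and ranges from 0 to 447 and from 0 to 489 over all 12. Their highest member was TESMIN, a gene of the testis, at 447 and 489, followed by TBX10 at 191 and 200. The members without a peak were keratin-associated protein genes and a defensin gene, all in the sparse stretch, and their heights of 0 entered the medians. Most of the broadly used genes lay in the dense stretch. The difference between the lists is thus mixed with position and with reads that can align to several places. The part of either was not tested. Over all genes of the genome with a TSS peak, the median was 221 and 237.

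The TSS peak of GSTP1, which encodes a glutathione transferase, reached 466 and 483 but ended upstream of the gene. It ended at 67583068 and 67583127, whereas the gene starts at 67583742. No peak lay over the GSTP1 promoter window shown above, in either replicate. Other broadly used genes also had their tallest peak away from the RefSeq promoter window. RAD9A had 252 and 273 but 40 and 62 over its window, and LRP5 had 318 and 281 but 104 and 156.

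The tallest peak of the segment was also the tallest of the whole genome in both replicates, and it was distal. It lay at 69121845 to 69124902 in an intron of TPCN2, which encodes a cation channel of endosomes and lysosomes, 30576 bp from the nearest coding start, that of SMIM38. Its height was 1744 (1663 to 1828) and 1759 (1678 to 1843), with fold enrichments of 402 and 389. At the TPCN2 start itself the peak was 415 and 449, and the tallest peak within 1 kb of any annotated SMIM38 start was 44 and 45. Within introns of TPCN2 lay 2 further regions of 929 and 951 and of 803 and 872, near the start of a noncoding gene.

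The second tallest distal region lay between genes, from 69509433 to 69518865, at 122291 bp from the CCND1 start. It had 1187 (1120.4 to 1256) and 1189 (1122 to 1259), with intervals that overlap those of the CCND1 peak in each replicate. At 8375 and 9289 bp it was the second widest peak of the segment. After these 2, heights were 831 and 943 for an intron of CPT1A, 859 and 828 for the region between FADD and PPFIA1, and 801 and 867 for a region 4279 bp from TPCN2. The remaining 5 of the 10 lay nearest to CHKA, CPT1A, C11orf24, LRP5 and MYEOV, at 674 to 831 in replicate 1 and 710 to 808 in replicate 2. LRP5 encodes a coreceptor of Wnt ligands, and its region lay 28361 bp from the nearest start, in an intron. All 10 lay before 70.46 Mb. Among the 100 tallest peaks of the genome, 4 and 5 belonged to the segment, and among the 1002 and 1000 tallest 25 and 25, beside its share of 0.643% and 0.603% of all peaks.

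Of the windows printed for distal regions, that between FADD and PPFIA1 held an AP-1 motif, and the other 2 held none of the 6. Over all distal windows of the segment, FOX letters occurred in 4.23% and 4.48%, against 8.51% and 8.32% in the rest of 11q. GATA letters occurred in 8.17% and 8.15%, against 15.1% and 15.6%, and AP-1 letters in 11.2% and 10.4%, against 14.4% and 13.5%. The CTCF core occurred in 4.33% and 4.48%, against 6.39% and 6.28%. AP-2 letters were more frequent, at 16.5% and 17.4% against 13.6% and 13.5%. The estrogen response element was rare in both areas. It was found in 1 of 992 and 0 of 982 windows of the segment (0.101% and 0%). In the rest it was found in 4 of 3007 and 7 of 3187 (0.133% and 0.220%). GC content moved with these shares, at 54% and 53.9% of the bases in the segment's windows against 48.8% and 48.6%, and its part in them was not tested. Among the 141 and 144 distal peaks of height 100 or more, FOX letters occurred in 3.55% and 2.78%, against 8.44% and 8.35% in the rest, AP-1 letters in 10.6% and 9.03%, against 19.1% and 17.3%, and GATA letters in 9.22% and 9.03%, against 12.2% and 12.3%. Among these tall peaks, AP-2 letters occurred in 17.0% and 16.7%, against 16.4% and 16.7%, so the excess over all peaks was not seen there. The CTCF core occurred in 12.8% and 11.8%, against 11.6% and 10.4%, where over all peaks it had been the less frequent in the segment.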

How the data were processed

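Peak lists of 2 biological replicates of CAMA-1 were used. The authors trimmed the reads with Trim Galore (0.6.5), aligned them with Bowtie2 (2.3.5.1) and called peaks with MACS2 (2.2.6) in each replicate, on hg38 per the labels. The settings and the treatment of duplicate reads are not given in the sources used here. The authors deposited for each peak its fold enrichment, which is a ratio of stacked reads to background, its score, and its p-value and q-value as −log10. In 100.0% of peaks the score was 10 times the −log10 q without its decimals, and the lowest −log10 q was 2.24 and 2.07. Read counts and depth were not used here, since the lists hold none. The deposited fold enrichment equals (height + 1) / (background + 1), and the step between its values, 0.230 and 0.221, gave each height. All heights were whole to within 7.91e-05 of a step.

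Peaks were assigned by midpoint. Genes, every annotated TSS and canonical starts came from GENCODE release 44, without the mitochondrial genes. Peaks of the replicates were matched by any overlap. The middle of a region stood for its summit in the 300-base windows. Of 48 named genes, 27 had a RefSeq promoter sequence. Functions were tested on simulated data. Intervals are 95% Wilson or exact Poisson intervals and cover counting error only, and reads without molecular identifiers are not independent molecules.

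The named genes are the 11 core genes, those at the 10 TSS and 10 distal regions with the best mean rank of height, and lists of 24 broadly used genes and 15 genes used in few tissues, of which 21 and 12 lie in the segment. Further genes are named where a count turned on them. The result of 1 further list of markers and the sequence of 1 region are not reported here. The segment and the lists were chosen with earlier results of these data known. The limits of height, the steps at 70.46 and 70.5 Mb, the intervals between genes and 5 added alternatives were chosen after the values were seen. An alternative planned with column 5 as a score was run on it as the fold enrichment that it is. Peaks and genes are not replicates, so no p-value was computed. Alternatives changed the q limit, borders, comparison bins, height measure, summary, distances, overlap and replicates. Python 3.11.15, numpy 2.4.6, pandas 2.3.3, scipy 1.17.1 and matplotlib 3.10.9 were used.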

Additional observations from a re-analysis of the deposited data

How the results depend on the processing

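Of 38 alternatives to 7 results, 18 gave values within the spread between replicates or the interval, 15 moved beyond it and 5 turned the direction of the average over replicates. Ratios with 1 replicate left out fall within this spread by construction, since with n = 2 each value lies nearer the mean than the SD. The spread also differed between results, so that 0.916 against 0.913 (SD 0.00107) for distal peaks to the flanks counted as moved. The tally is therefore not a measure of robustness. With peaks of a −log10 q of at least 10, the ratio of densities was 3.71, the ratio of median heights was 0.783 for TSS and 0.909 for distal peaks, that of distal peaks to the flanks was 0.916, and 89.4% of peaks were found in the other replicate (85.9% as reported). With the segment from 68 to 71 Mb, the density ratio was 5.13 and the height ratios were 0.563 for TSS and 0.773 for distal peaks. Against bins with many genes, the density ratio was 2.5 and the distal height ratio 0.808. The mean in place of the median reversed both height ratios, to 1.10 for TSS and 1.12 for distal peaks. With TSS peaks within 100 bp and distal peaks beyond 10 kb, the ratios averaged 1.14, counted as a reversal, and 0.779. For the TSS ratio the replicates lay on opposite sides of 1, at 0.987 and 1.29, so its direction was not settled. A reciprocal overlap of 50% lowered the share found again to 70.7%. Chosen after seeing the data, peaks of height 200 or more gave a density ratio of 5.50, the score gave 0.473 for TSS and 0.676 for distal peaks, and the tallest TSS peak of each gene (1.62) and the 10 tallest distal peaks of each bin (4.26) reversed the height ratios. The last 2 take a fixed number of peaks from larger sets in the segment, so they also carry the difference in density.

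Leaving out each replicate in turn gave 4.21 to 4.41 for density, 0.582 to 0.641 and 0.788 to 0.803 for the heights of TSS and distal peaks, 0.684 to 0.788 and 0.912 to 0.914 for those against the flanks, and 90.3% to 91.7% of genes with a TSS peak. With the peak within 100 bp, that share was 81.9%, beside 73.2% of all genes at the same distance. Signal under the limit of the peak caller was not detectable, and depth, which was not used here, bears on how many low peaks pass. No paired analysis was possible because there was a single group of samples.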
